A study of Mus musculus with 4 samples.

Results

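The genes described here are 10 members of the LIF and BMP self-renewal pathways, chosen by symbol from the 33565 genes of the count matrices. No rule on their values was used, but earlier results of these data were known when they were chosen. They are the receptors Lifr, Il6st and Bmpr1a, the transducers Jak1 and Stat3, the ligand Bmp4, and the targets Socs3, Id1, Id2 and Id3. All 10 were found in the matrices. RNA was measured in single cells by CapSeq, a method with cells in capsules and several rounds of barcoding, in 1 experiment from which each line was taken by its first barcode (BC1). N2a, a mouse neuroblastoma line, and NIH/3T3, a mouse embryonic fibroblast line, were grown in DMEM with 10% fetal bovine serum. The mouse embryonic stem cells (mESCs) were the line E14TG2a, grown on gelatin in DMEM with 15% serum, LIF at 1000 U/ml, the GSK3 inhibitor CHIR99021 at 3 μM, and the MEK inhibitor PD0325901 at 1 μM. The growth protocol names no added BMP for any line. Line and medium differed together, so their parts in a difference cannot be told apart.

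LIF binds LIFR, which pairs with the shared subunit gp130 (Il6st). The pair activates JAK kinases, JAK1 above all, which phosphorylate STAT3. STAT3 enters the nucleus and switches on its own inhibitor Socs3 and, in mouse embryonic stem cells, self-renewal genes. BMP4 binds type I receptors such as BMPR1A, whose signal runs through SMAD1 and SMAD5 to the Id genes. Id proteins have a helix-loop-helix domain but cannot bind DNA, and they hold E proteins out of DNA-binding dimers. In serum-free culture, LIF and BMP together keep mouse embryonic stem cells undifferentiated, which is what this gene set is known for.

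Each line was 1 sample without replicates, so no test between lines was made. A UMI is a molecular barcode that counts 1 captured transcript. Levels are given as CPM, the UMIs of a gene per 1000000 UMIs of a line, summed over cells that held 1000 or more UMIs of which no more than 20% were mitochondrial. Intervals are at the 95% level, exact Poisson for levels, exact for ratios of summed counts, and exact binomial for shares of cells, and cover counting error only. The range over the 32 BC1 wells of a line is also given, which shows the spread between aliquots of 1 culture, not between cultures. The filter left 2323 N2a cells, 2037 NIH/3T3 cells, and 2137 mESCs, with 11697865 to 17955221 UMIs per line. Median UMIs per cell were 6185, 4863, and 4803. No cell barcode was shared between lines (0 barcodes). The split by BC1, which is part of the cell barcode, fixes this, so it does not measure purity. The line labels were checked with lists of marker genes: 8 of 8 mESC genes, 6 of 7 N2a genes, and 7 of 7 NIH/3T3 genes were highest in their own line. The exception was Gata3, and the N2a marker Dbh had only 16 UMIs in N2a. Zfp42, a marker of mESCs that the other lines should lack, had a UMI in 0.603% of N2a cells and 0.687% of NIH/3T3 cells. These shares served as a measure of stray transcripts for a gene with 1318 CPM in mESCs. Other markers gave more. The 8 mESC markers together had 0.409% of their mESC level in N2a and 0.328% in NIH/3T3. In mESCs, the N2a markers together had 2.22% of their N2a level, and the NIH/3T3 markers 0.528% of their NIH/3T3 level. Such sums cannot tell stray transcripts from low expression.

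Socs3 and Id2 promoters are shown, picked after values and motif matches were seen, because these target genes were far apart between lines and hold a searched motif. The sequences are the 250 bases before the gene start in the RefSeq table (GRCm38.p6). Socs3 was at chr11:117969367-117969616 on the minus strand and Id2 at chr12:25096093-25096342 on the minus strand. Capitals mark the STAT motif TTCNNNGAA or the BMP-SMAD motif GGCGCC, which do not overlap each other here.
Socs3: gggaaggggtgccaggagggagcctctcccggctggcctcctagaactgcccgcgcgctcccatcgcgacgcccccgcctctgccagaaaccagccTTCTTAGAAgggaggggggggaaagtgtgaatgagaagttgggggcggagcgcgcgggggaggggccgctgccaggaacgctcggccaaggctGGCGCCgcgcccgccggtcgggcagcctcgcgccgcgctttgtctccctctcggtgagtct
Id2: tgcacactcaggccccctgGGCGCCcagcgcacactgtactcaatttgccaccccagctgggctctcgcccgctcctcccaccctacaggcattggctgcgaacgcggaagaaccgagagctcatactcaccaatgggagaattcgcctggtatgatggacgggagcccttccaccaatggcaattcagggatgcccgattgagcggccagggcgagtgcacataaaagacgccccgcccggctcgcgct

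Both motifs read the same on either strand. Of the 10 members, 9 had an entry in the table, and the entry of Id1 was missing. The STAT motif was found in 1 of these 9 genes, Socs3, where it begins 154 bases before the start, and in 7.02% of all 32851 promoters. The BMP-SMAD motif was found in 5 genes, Socs3, Id2, Jak1, Bmpr1a and Lifr, and in 9.59% of all promoters. In Socs3 it begins 61 bases and in Id2 231 bases before the start. These matches describe letters in this window and are not measured binding sites.

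The members did not follow 1 order of lines. Lifr, Socs3 and Bmp4 had their highest level in mESCs (3 genes), Il6st, Jak1, Bmpr1a and Id3 in NIH/3T3 (4 genes), and Stat3, Id1 and Id2 in N2a (3 genes). Between neighbors in this order, the intervals overlapped for Stat3 in N2a and mESCs, and for Bmpr1a in N2a against each of the other lines. A gene was counted as apart between lines when it had at least 5 CPM in the higher line and a ratio of at least 2. By this rule, 9 members could be compared, and Bmp4 was below 5 CPM in every line.
Of these 9, 6 were at least 2-fold apart between mESCs and N2a in either direction, where 45.0% of all 12245 genes compared were. Of the 6, 3 were at least 2-fold higher in mESCs than in N2a (Lifr, Il6st and Socs3), where 21.8% of all genes were, and 3 were at least 2-fold lower (Id1, Id2 and Id3), where 23.2% of all genes were. Against NIH/3T3, 7 were apart, with 46.3% of all 12067 genes. Of the 7, 2 were higher in mESCs (Lifr and Stat3), with 23.6% of all genes, and 5 were lower (Il6st, Jak1, Id1, Id2 and Id3), with 22.7%. In N2a against NIH/3T3, 5 were apart, with 40.1% of all 11812 genes. Of the 5, 1 was higher (Stat3), with 20.9% of all genes, and 4 were lower (Lifr, Il6st, Socs3 and Id3), with 19.2%. Id2 was just under the fold of 2 in this comparison, at a ratio of 1.998 (1.74 to 2.30), and passed it under several of the other settings. These counts are of few genes, and only the 5 of 9 lower in mESCs than in NIH/3T3 and the 4 of 9 lower in N2a than in NIH/3T3 exceeded 2 times the share of all genes.

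**Figure D1:**
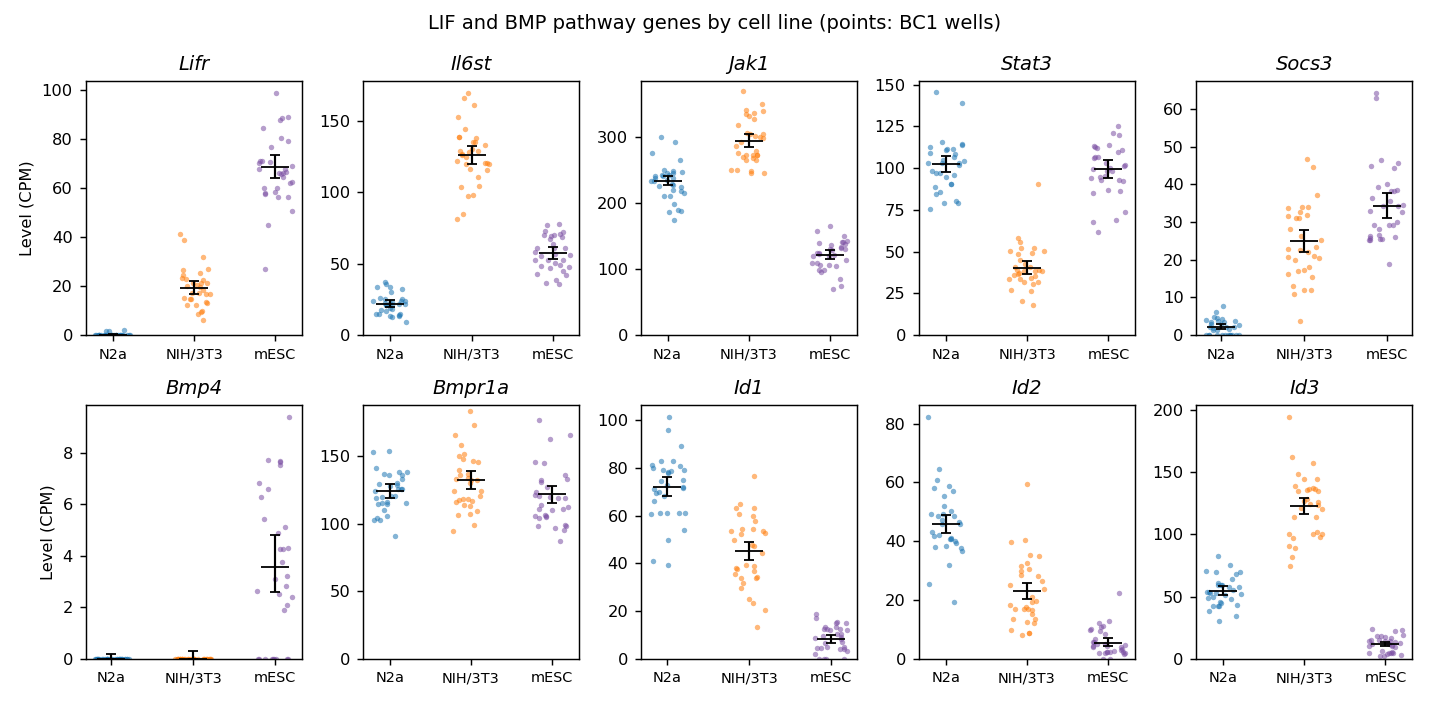
Levels of the 10 members in CPM (y axis, linear, a separate scale for each gene) in N2a, NIH/3T3, and mESCs. Each point is 1 of the 32 BC1 wells of a line, and the black mark is the level over all cells with its exact Poisson interval. Lifr is near 0 in N2a, Bmpr1a lies at 122 to 132 CPM in all lines, and the Id genes are lowest in mESCs.

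Lifr (ENSMUSG00000054263, chromosome 15, 7120095 to 7226970 on GRCm39), the LIF-specific receptor subunit, had the largest ratio between lines of the members counted in all lines. Its level was 68.6 CPM in mESCs (64.0 to 73.4), 19.4 CPM in NIH/3T3 (17.0 to 22.1), and 0.167 CPM in N2a (0.0345 to 0.488), where only 3 UMIs were counted. The BC1 wells ranged from 27.0 to 98.7 CPM in mESCs, from 6.33 to 41.4 CPM in NIH/3T3, and from 0 to 1.93 CPM in N2a. All 32 mESC wells and all 32 NIH/3T3 wells were thus above every N2a well, and 31 of 32 mESC wells were above every NIH/3T3 well. The level in mESCs was 3.53 times that in NIH/3T3 (3.05 to 4.11) and 410.4 times that in N2a (140.0 to 1994). The share of cells with a UMI of Lifr was 27.9% for mESCs, 9.87% for NIH/3T3, and 0.129% for N2a. The N2a share was below that of Zfp42 in N2a. Zfp42 had 1318 CPM in mESCs, far above Lifr, so this does not show whether the 3 UMIs were stray transcripts. After each cell was thinned to 1000 UMIs, the Lifr shares were 6.04%, 1.87%, and 0.0430%.

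Il6st (ENSMUSG00000021756, chromosome 13, 112600604 to 112646620) encodes gp130, which LIF shares with other cytokines of the interleukin-6 family. In contrast to Lifr, it was highest in NIH/3T3, at 125.9 CPM (119.6 to 132.5), against 57.3 CPM in mESCs (53.1 to 61.7) and 22.1 CPM in N2a (19.99 to 24.4). The wells ranged from 81.3 to 169.8 CPM, from 36.0 to 77.5 CPM, and from 9.21 to 37.2 CPM in the same order. The NIH/3T3 wells did not overlap those of the other lines, and 30 of 32 mESC wells were above every N2a well. The NIH/3T3 level was 2.20 times the mESC level (2.01 to 2.41) and 5.70 times the N2a level (5.09 to 6.38). Shares of cells with a UMI were 45.3%, 25.5%, and 14.5% in NIH/3T3, mESCs, and N2a, and 11.6%, 6.22%, and 2.20% after thinning. N2a cells therefore held transcripts of the shared subunit well above stray transcripts, and nearly none of the LIF-specific one.

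Per kilobase of annotated exon, the level of Lifr was 57.4% of the sum of both subunits in mESCs, 14.8% in NIH/3T3, and 0.843% in N2a. Exon lengths of 13.795 kb for Lifr and 15.529 kb for Il6st are unions over all transcripts. Summed over both genes without scaling by length, the level was 125.9 CPM in mESCs (119.7 to 132.3), 145.3 CPM in NIH/3T3 (138.5 to 152.4), and 22.3 CPM in N2a (20.1 to 24.6). The balance of the subunits thus differed more between mESCs and NIH/3T3 than their summed level.
In mESCs thinned to 1000 UMIs, a UMI of Il6st was found in 7.75% of the 129 cells with Lifr (3.78% to 13.8%) and in 6.13% of the other cells (5.12% to 7.26%). In NIH/3T3, the shares were 18.4% of 38 cells (7.74% to 34.3%) and 11.5% (10.1% to 12.9%). The intervals overlapped in both lines, so a difference was not detectable at this depth.

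Bmpr1a (ENSMUSG00000021796, chromosome 14, 34132687 to 34225379), a type I BMP receptor, differed least. Its level was 132.0 CPM in NIH/3T3 (125.5 to 138.7), 124.4 CPM in N2a (119.3 to 129.7), and 121.7 CPM in mESCs (115.6 to 128.0). The wells ranged from 94.5 to 183.2 CPM, from 90.7 to 153.8 CPM, and from 86.9 to 176.4 CPM, and overlapped between all lines. The ratio of mESCs to N2a was 0.978 (0.915 to 1.04), and the ratio of mESCs to NIH/3T3 was 0.922 (0.858 to 0.9902). A UMI was found in 42.8% to 49.5% of the cells of each line, and in 11.4% to 12.2% after thinning. Bmpr1a was thus at a similar level in all lines, with ratios of 0.922 to 0.978 for mESCs to N2a, mESCs to NIH/3T3, and N2a to NIH/3T3, although the interval for mESCs to NIH/3T3 did not reach 1.

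Jak1 (ENSMUSG00000028530, chromosome 4, 101008838 to 101122487), the kinase bound to gp130, was lowest in mESCs. Its level was 122.2 CPM in mESCs (116.1 to 128.6), 234.5 CPM in N2a (227.5 to 241.7), and 295.0 CPM in NIH/3T3 (285.3 to 305.0). The wells ranged from 70.6 to 166.0 CPM, from 174.4 to 300.8 CPM, and from 245.7 to 370.5 CPM. No mESC well reached the lowest well of another line. The NIH/3T3 level was 2.41 times the mESC level (2.27 to 2.57), and the N2a level was 1.92 times the mESC level (1.81 to 2.04), just under the fold of 2.
Stat3 (ENSMUSG00000004040, chromosome 11, 100775924 to 100830450), the transcription factor that carries the LIF signal, showed another order. It had 102.6 CPM in N2a (98.0 to 107.4), 99.4 CPM in mESCs (93.9 to 105.1), and 40.3 CPM in NIH/3T3 (36.8 to 44.2). Wells ranged from 75.6 to 145.8 CPM in N2a, from 61.8 to 125.5 CPM in mESCs, and from 18.1 to 90.2 CPM in NIH/3T3. Of the 32 wells, 25 in N2a and 25 in mESCs were above every NIH/3T3 well. The level in mESCs was 2.46 times that in NIH/3T3 (2.21 to 2.75), and its ratio to N2a was 0.969 (0.901 to 1.04). After thinning, a UMI of Stat3 was found in 9.30% of N2a cells, 8.89% of mESCs, and 3.88% of NIH/3T3 cells.

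Socs3 (ENSMUSG00000053113, chromosome 11, 117856905 to 117860898), the STAT3-induced inhibitor of gp130 and JAK, was the 1 target that was highest in mESCs. It had 34.3 CPM in mESCs (31.1 to 37.8), 24.9 CPM in NIH/3T3 (22.1 to 27.9), and 2.12 CPM in N2a (1.50 to 2.90). The wells ranged from 18.8 to 64.2 CPM in mESCs, from 3.66 to 46.8 CPM in NIH/3T3, and from 0 to 7.596 CPM in N2a. Every mESC well was above every N2a well, whereas mESC and NIH/3T3 wells overlapped, with 2 of 32 mESC wells above all of NIH/3T3. The level in mESCs was 16.2 times that in N2a (11.6 to 23.2) and 1.38 times that in NIH/3T3 (1.19 to 1.61). The shares of cells with a UMI were 15.4% for mESCs, 12.4% for NIH/3T3, and 1.46% for N2a, or 3.32%, 2.95%, and 0.215% after thinning. The lines with more Lifr thus also had more Socs3, while N2a, with a Stat3 level like that of mESCs, had the least of both.

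Bmp4 (ENSMUSG00000021835, chromosome 14, 46620250 to 46636745), the only ligand among the members, was counted in mESCs alone. It had 44 UMIs in mESCs, or 3.57 CPM (2.59 to 4.79), in 40 cells (1.87%, 1.34% to 2.54%), and no cell held more than 2 UMIs. In N2a and NIH/3T3 it had 0 UMIs, and a count of 0, taken to allow 3 counts, allows up to 0.167 CPM and 0.256 CPM. The same limit allows a UMI in up to 0.129% and 0.147% of cells, which limits cells with a UMI and not cells that express the gene. The upper ends of the exact intervals for 0 UMIs were higher, at 0.205 CPM and 0.315 CPM. Against 3 counts per line, the measured level in mESCs, its own interval left aside, was at least 21.4-fold higher than in N2a and at least 13.9-fold higher than in NIH/3T3. The wells of mESCs ranged from 0 to 9.40 CPM, and 9 of 32 wells held no UMI.

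The Id genes were the members with the lowest levels in mESCs relative to the other lines. Id1 (ENSMUSG00000042745, chromosome 2, 152566218 to 152579544) had 8.28 CPM in mESCs (6.75 to 10.0), 45.1 CPM in NIH/3T3 (41.3 to 49.1), and 72.1 CPM in N2a (68.2 to 76.1). Id2 (ENSMUSG00000020644, chromosome 12, 25143798 to 25147282) had 5.52 CPM (4.29 to 7.00), 22.9 CPM (20.2 to 25.8), and 45.8 CPM (42.7 to 49.0) in the same lines. Id3 (ENSMUSG00000007872, chromosome 4, 135870808 to 135873066) had 11.8 CPM (9.93 to 13.8), 122.5 CPM (116.2 to 129.0), and 54.7 CPM (51.3 to 58.2). The mESCs were therefore lowest for all of Id1, Id2 and Id3, while N2a was highest for Id1 and Id2 and NIH/3T3 for Id3.

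Id1 was 8.71 times higher in N2a than in mESCs (7.11 to 10.8) and 5.44 times higher in NIH/3T3 (4.40 to 6.80). For Id2, the ratios were 8.30 (6.47 to 10.8) and 4.15 (3.17 to 5.50). For Id3, they were 4.65 (3.90 to 5.57) and 10.4 (8.77 to 12.4). The wells of mESCs reached at most 18.8 CPM for Id1, 22.5 CPM for Id2, and 23.9 CPM for Id3. All 32 mESC wells were below every N2a well for Id1 and Id3, and 31 of 32 for Id2. Against NIH/3T3, all 32 were below for Id3, 26 for Id1, and 23 for Id2. In the median mESC well, only 3 UMIs of Id1, 1 of Id2, and 4 of Id3 were counted, so the wells of this line mostly show counting error.

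Summed over Id1, Id2 and Id3, the level was 25.6 CPM in mESCs (22.8 to 28.5), 172.5 CPM in N2a (166.5 to 178.7), and 190.5 CPM in NIH/3T3 (182.6 to 198.5). The sum was 6.75 times higher in N2a than in mESCs (6.01 to 7.603) and 7.45 times higher in NIH/3T3 (6.62 to 8.41). N2a and NIH/3T3 had similar sums of different makeup. Per kilobase of annotated exon, Id1 was 48.2%, Id2 15.6%, and Id3 36.2% of the Id level in N2a, whereas Id1 was 25.3%, Id2 6.55%, and Id3 68.2% in NIH/3T3. In mESCs the shares were 36.4%, 12.4%, and 51.3%. Scaling by length lowers the long Id2. Without scaling, Id1, Id2 and Id3 gave 41.8%, 26.5%, and 31.7% of the Id UMIs in N2a. These shares were 23.7%, 12.03%, and 64.3% in NIH/3T3, and 32.4%, 21.6%, and 46.0% in mESCs.
The same pattern was seen in shares of cells. A UMI of Id1 was found in 33.7% of N2a cells, 20.03% of NIH/3T3 cells, and 4.35% of mESCs. For Id2 the shares were 23.9%, 10.8%, and 2.85%, and for Id3 26.2%, 39.3%, and 6.08%. After thinning to 1000 UMIs, the shares in mESCs were 0.889%, 0.655%, and 0.655% for Id1, Id2 and Id3, against 2.06% to 11.7% in the other lines. The unthinned mESC shares of 2.85% to 6.08% were above those of the N2a gene Hand2 (0.936%) and the NIH/3T3 gene Col1a2 (0.515%) in mESCs, which should lack both. This holds for Hand2 and Col1a2 only, since another N2a marker, Elavl4, had 6.74 CPM in mESCs.

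**Figure D2:**
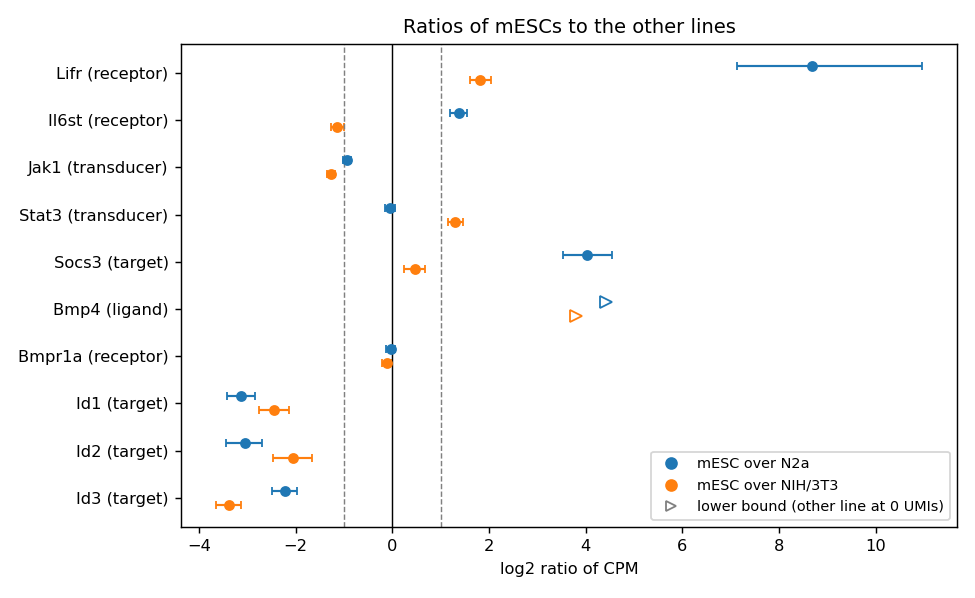
Ratio of the level in mESCs to that in N2a (blue) and NIH/3T3 (orange) for each member, on a log2 axis, with exact intervals from counting error. Dashed lines mark a ratio of 2 in either direction, and open triangles are lower bounds for Bmp4. Lifr lies to the right in both comparisons, Id1, Id2 and Id3 lie to the left in both, and Bmpr1a lies near 0.

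Receptors and targets were also compared as sums. The UMIs of Lifr, Il6st and Bmpr1a together gave 247.5 CPM in mESCs, 146.7 CPM in N2a, and 277.3 CPM in NIH/3T3. Those of Socs3, Id1, Id2 and Id3 gave 59.9 CPM, 174.7 CPM, and 215.3 CPM. The ratio of mESCs to N2a was 1.69 for receptors (1.60 to 1.78) and 0.343 for targets (0.316 to 0.372), and the ratio of mESCs to NIH/3T3 was 0.893 for receptors (0.849 to 0.938) and 0.278 for targets (0.256 to 0.302). On this measure mESCs held more receptor transcripts than N2a and fewer target transcripts than both lines. Bmpr1a, similar in all lines, gave 2234 of the 2634 receptor UMIs in N2a and 1499 of 3050 in mESCs. The median log2 ratio of CPM + 1 for mESCs to N2a was 1.33 for receptors and -2.48 for targets. The log2 ratios of the sums were 0.75 and -1.54. The ratio of N2a to NIH/3T3 in receptor sums was 0.529 (0.502 to 0.557). In N2a and NIH/3T3 the target sum was made up mostly of Id genes, whereas in mESCs Socs3 gave 423 of its 738 UMIs. Socs3 also went the other way from the sum, being highest in mESCs. The ratio of N2a to NIH/3T3 in target sums was 0.811 (0.769 to 0.855), and without Id3, the target with the most UMIs, this direction turned (log2 ratio of 0.37 against -0.30).

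Id genes were also examined among the cells of each line. In N2a thinned to 1000 UMIs, Id3 was found in 10.5% of the 143 cells with Id1 (5.99% to 16.7%) and in 4.77% of the cells without it (3.91% to 5.75%). Id2 was found in 8.39% of the cells with Id1 (4.41% to 14.2%) and in 3.26% of the others (2.55% to 4.09%). Id3 was found in 15.7% of the 83 cells with Id2 (8.61% to 25.3%) and in 4.73% of the others (3.89% to 5.69%). For each of these pairs the intervals did not overlap at this depth, and 2.05 to 3.06 times as many cells held both genes as independent detection would give. In the 2070 N2a cells thinned to 2000 UMIs instead, the ratio was 1.59 for Id1 and Id3, 1.21 for Id1 and Id2, and 1.56 for Id2 and Id3. There only Id3 by Id1 kept intervals without overlap, at 14.4% (10.2% to 19.5%) against 8.37% (7.14% to 9.74%), whereas Id2 by Id1 was 9.47% (6.10% to 13.9%) against 7.61% (6.43% to 8.92%) and Id3 by Id2 was 14.2% (9.22% to 20.5%) against 8.65% (7.42% to 10.00%). In NIH/3T3 the same comparison gave 15.9% against 11.5% for Id3 by Id1, 2.44% against 2.05% for Id2 by Id1, and 14.3% against 11.6% for Id3 by Id2, with overlapping intervals. In mESCs, 1 cell held both Id1 and Id3, which is too few to compare.

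**Figure D3:**
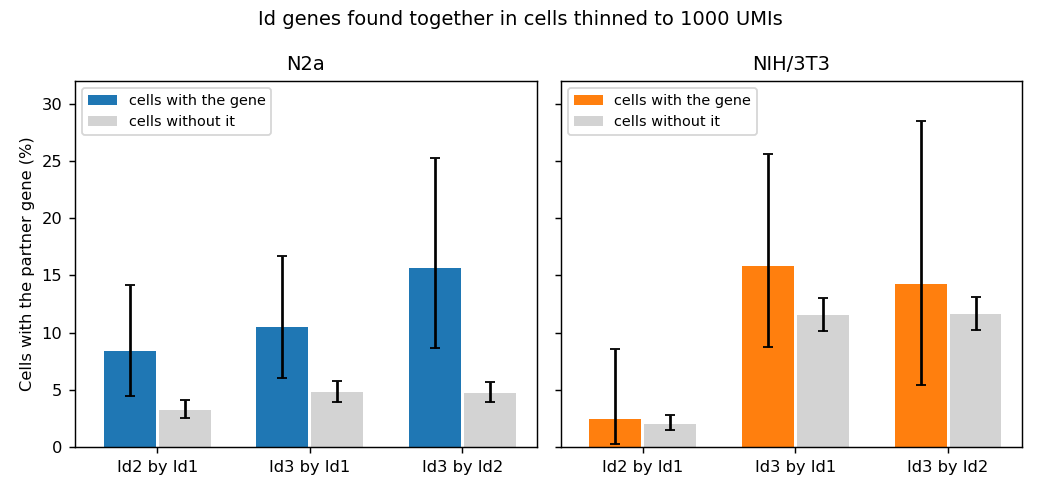
Share of cells (y axis, percent) with a UMI of a partner Id gene, among cells with (colored) and without (grey) a UMI of another Id gene, in N2a and NIH/3T3 cells thinned to 1000 UMIs. Bars are shares and lines are exact binomial intervals. In N2a the colored bars, 8.39% to 15.7%, lie above the grey bars, 3.26% to 4.77%, at this depth, whereas in NIH/3T3 the intervals overlap.

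Across all 2323 N2a cells, depth-scaled log counts were also correlated, as a description. Of 9828 genes found in at least 5% of the cells, the gene most correlated with Id1 was Id3 (Pearson's r = 0.23) and the next was Id2 (r = 0.17). For Id2 the first was Id3 (r = 0.18) and the next Id1. These points share 1 sample and differ in depth, and Id1 itself correlated with the log of total UMIs at r = 0.18. In NIH/3T3, where Id3 was highest, the genes most correlated with it across 2037 cells were Timp3 (r = 0.22), Zfpm2 (r = 0.19), and Hdac9 (r = 0.18), and in mESCs the best r for Socs3 and Bmp4 was at most 0.13, which in sparse counts is no finding.
Over the 3 lines, likeness was measured as the distance between log2(CPM + 1) profiles centered on their mean, among genes with at least 20 CPM in a line. The profiles nearest to Id1 were those of Msrb3 (distance 0.060), Arhgef40 (0.078), and Laptm4b (0.088), and the nearest to Id3 were Lrrc8c (0.067), Mpdz (0.13), and Ier3 (0.16). For Socs3 they were Myo10 (0.14), Dock5 (0.15), and Gjc1 (0.16), and for Bmp4 Coil (0.034), Zfp59 (0.043), and Dcp2 (0.072). The likeness to Bmp4 was helped by the added 1 CPM, since Coil had 39.9 CPM in N2a, where Bmp4 had 0 UMIs.

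More genes of both pathways were taken from lists by role, with the rule of 5 CPM and a ratio of 2. All lists except those of BMP antagonists, SMAD-related genes, and E proteins also hold members. Their counts are thus not separate from the results for the members. For every list, the shares over all genes compared were 21.8% higher and 23.2% lower in mESCs than in N2a, and 23.6% higher and 22.7% lower than in NIH/3T3, and the medians over all genes are those given for the first list. Of 14 LIF-family ligands and receptors, 6 could be compared between mESCs and N2a, of which 3 were higher and 3 lower in mESCs, with a median log2 ratio of -0.71 against -0.046 over all genes compared. Against NIH/3T3, 1 of 6 was higher and 5 were lower, with a median of -1.63 against -0.0094. Lifr, Il6st and Il6ra were the genes higher than in N2a, and Lifr was the gene higher than in NIH/3T3. Lif itself had 19 UMIs in mESCs, 4 in N2a, and 25 in NIH/3T3, below 5 CPM in each line. The receptor subunits of related cytokines differed in the line where they were highest. The oncostatin M receptor gene Osmr had 25.05 CPM in NIH/3T3 (22.3 to 28.1) and at most 0.487 CPM elsewhere. The CNTF receptor gene Cntfr reached 63.7 CPM in N2a (60.1 to 67.5), against 3.90 CPM for mESCs and 0.342 CPM for NIH/3T3. The ligand gene Clcf1, whose product binds the CNTF receptor, had 55.8 CPM in NIH/3T3 and at most 0.446 CPM elsewhere, and the interleukin-6 receptor gene Il6ra was highest in NIH/3T3, at 23.9 CPM. N2a thus held Cntfr and Il6st transcripts, with 3 UMIs of Lifr and 2 of Osmr.

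Among 13 JAK-STAT transducers, 3 of 12 compared were higher and 1 lower in mESCs than in N2a, and 5 were higher and 5 lower than in NIH/3T3. The median log2 ratios were -0.021 and -0.17. Gab1, an adaptor that links receptors to SHP2 and PI3K, had 301.2 CPM in mESCs (291.6 to 311.1), 81.2 CPM in NIH/3T3, and 0.613 CPM in N2a, the same order of lines as Lifr. Stat5b and Stat6 were highest in NIH/3T3, at 29.4 CPM and 49.5 CPM, and so was Ptpn11, which encodes SHP2, at 154.2 CPM. Of 15 inhibitors of the pathway, 3 of 13 were higher and 0 lower in mESCs than in N2a by this rule, and 3 of 14 were higher and 2 lower than in NIH/3T3, with median log2 ratios of 0.54 and 0.16. Socs2 had 65.2 CPM in N2a, 43.7 CPM in mESCs, and 0.171 CPM in NIH/3T3, whereas Socs1 and Socs5 were highest in NIH/3T3, at 29.8 CPM and 92.4 CPM. The SOCS genes thus differed in the line where they were highest. The SUMO ligase gene Pias2 had 716.4 CPM in mESCs, 153.4 CPM in N2a, and 62.5 CPM in NIH/3T3.

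Of 12 genes listed as STAT3 targets in mESCs, Socs3 among them, 11 could be compared, and 9 were higher and 1 lower in mESCs than in N2a, with a median log2 ratio of 3.49 against -0.046 over all genes. Against NIH/3T3, 7 of 11 were higher and 1 lower, with a median of 3.01 against -0.0094. Klf4 had 228.9 CPM in mESCs (220.5 to 237.5), 127.9 CPM in NIH/3T3, and 12.0 CPM in N2a, the order of Lifr and Socs3. The list as a whole did not follow Lifr between N2a and NIH/3T3. There, 3 of 8 were higher in N2a (Tfcp2l1, Pim1 and Junb), with 20.9% of all genes, and 2 lower (Socs3 and Klf4), with 19.2%. The median log2 ratio of N2a to NIH/3T3 was 0.51, against 0.038 over all genes. The transcription factor gene Tfcp2l1 had 713.2 CPM in mESCs and at most 9.64 CPM elsewhere, Sall4 258.7 CPM and at most 0.427 CPM, and Bcl3 34.8 CPM and at most 1.37 CPM. Junb was the exception, with 12.7 CPM in mESCs, 28.3 CPM in NIH/3T3, and 59.4 CPM in N2a. Junb and Pim1 were named after their values were seen. Several of these genes are also general markers of embryonic stem cells, and Tfcp2l1 was on the marker list used here.

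**Figure D4:**
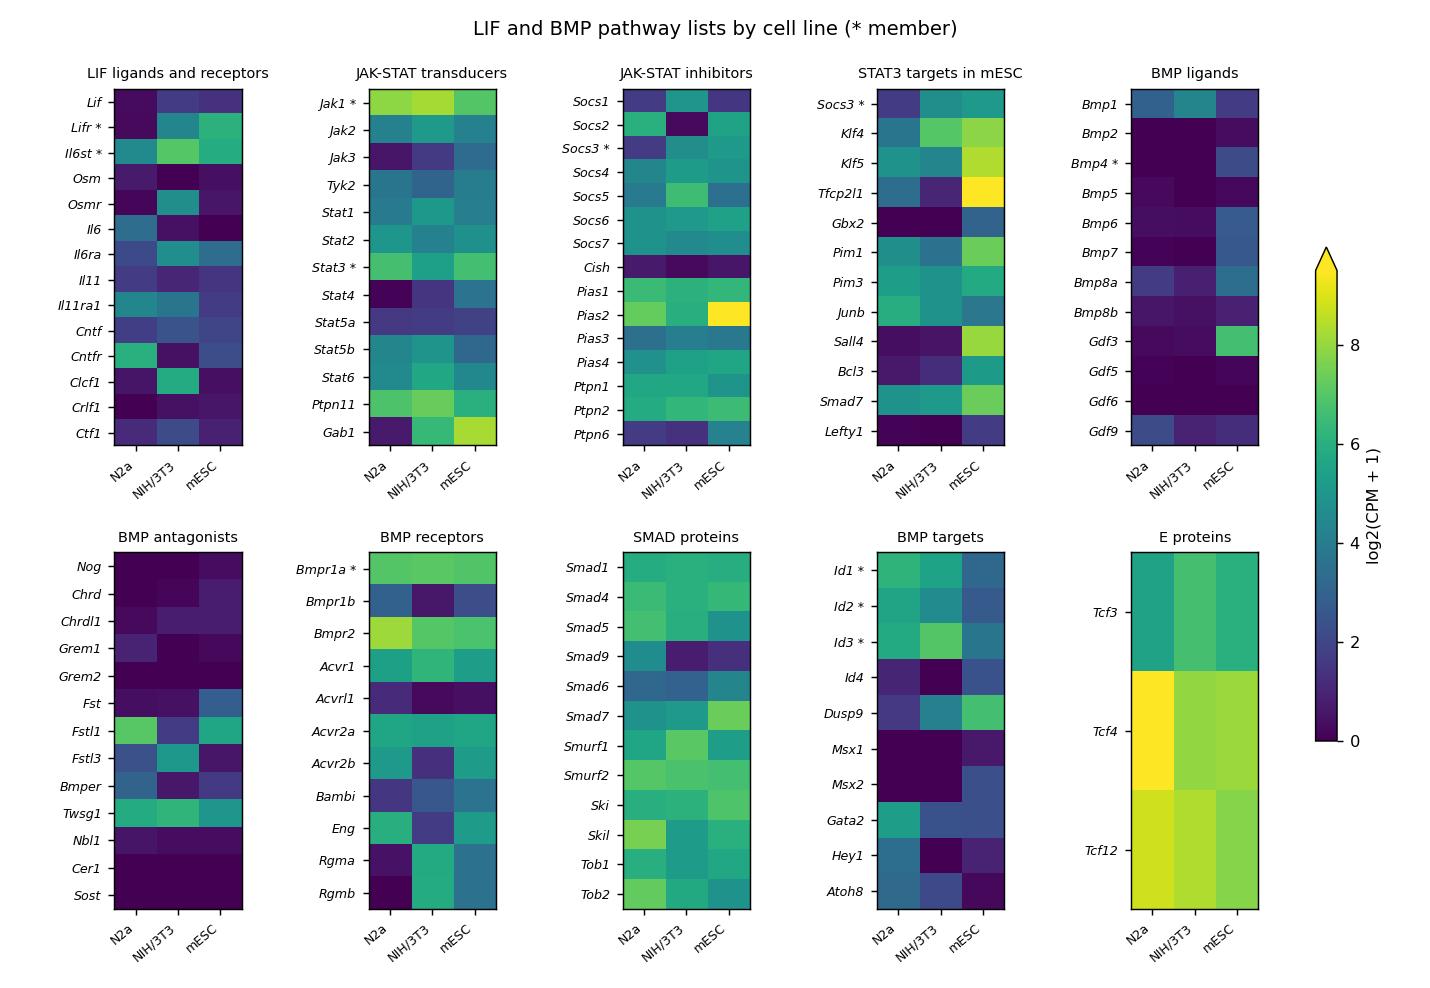
Levels of all genes of the 10 pathway lists as log2(CPM + 1) in N2a, NIH/3T3, and mESCs, with members marked by an asterisk. The color scale ends at 9.5, and brighter cells are higher. In mESCs most STAT3 targets are brighter than elsewhere, with Junb darker, whereas Id1, Id2 and Id3 are darker than in the other lines.

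On the BMP side, 5 of 12 genes listed as ligands could be compared between mESCs and N2a. Of these, 4 were higher and 1 lower in mESCs, with a median log2 ratio of 2.37. The same counts held against NIH/3T3, with a median of 2.61. The lower gene in both was Bmp1, named after its values were seen, which encodes a protease and not a ligand. The 4 higher genes were Bmp6, Bmp7, Bmp8a and Gdf3. Bmp6, Bmp7 and Bmp8a had only 5.60, 5.11, and 9.82 CPM in mESCs, and at most 2.23 CPM elsewhere. All 4 reached 5 CPM in mESCs alone, so the rule could not have called them lower there. Bmp1 in turn reached 5 CPM only outside mESCs. Gdf3, a TGF-β family ligand of early embryos, had 101.4 CPM in mESCs (95.8 to 107.1) and 3 UMIs in each of the other lines. Of 13 antagonists, 1 of 4 compared was higher and 2 lower in mESCs than in N2a, and 2 of 4 were higher and 2 lower than in NIH/3T3, with medians of -1.13 and 0.59. Fstl1 had 131.0 CPM in N2a, 47.6 CPM in mESCs, and 2.22 CPM in NIH/3T3, Fstl3 had 32.9 CPM in NIH/3T3 and at most 4.18 CPM elsewhere, and Twsg1 had 31.2 to 74.0 CPM in all lines. The classical extracellular antagonist gene Nog had 3 UMIs in mESCs and 0 UMIs in both other lines, and was named after its value was seen.

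Among 11 BMP receptor and co-receptor genes, 3 of 10 compared were higher and 1 lower in mESCs than in N2a, with a median log2 ratio of -0.042 against -0.046 over all genes. Against NIH/3T3, 3 of 9 were higher and 2 lower, with a median of -0.12. The gene lower than in N2a was the type II receptor gene Bmpr2, named after its value was seen, with 112.2 CPM in mESCs (106.3 to 118.2), 125.7 CPM in NIH/3T3, and 274.0 CPM in N2a. Some BMP receptor genes other than Bmpr1a thus differed between lines. Acvr2a and Acvr1, named after their values were seen, were within 2-fold between all lines. Acvr2a had 42.7 to 48.7 CPM and Acvr1 39.4 to 73.9 CPM. The co-receptor gene Rgma had 55.5 CPM in NIH/3T3, 10.96 CPM for mESCs, and 7 UMIs in N2a, and its relative Rgmb had 56.0 CPM, 10.7 CPM, and 0 UMIs. Another type II receptor gene, Acvr2b, had 37.2 CPM in mESCs, 33.9 CPM in N2a, and 1.45 CPM in NIH/3T3, and endoglin (Eng) 35.7 CPM, 60.4 CPM, and 2.22 CPM. Of 12 SMAD-related genes, 2 were higher and 4 lower in mESCs than in N2a, and 2 of 11 higher and 2 lower than in NIH/3T3, with medians of -0.29 and 0.29. Smad5, which carries the BMP signal with Smad1, was lower in mESCs in both comparisons, at 27.7 CPM (24.8 to 30.8) against 99.4 CPM in N2a and 61.7 CPM for NIH/3T3, whereas Smad1 had 58.2 to 63.9 CPM in all lines. Both were named after their values were seen. The inhibitory SMAD gene Smad7, which was also on the STAT3 list, had 158.7 CPM in mESCs (151.8 to 165.9), 33.9 CPM in NIH/3T3, and 27.5 CPM in N2a. Smad9, which encodes a BMP-activated SMAD, reached 23.6 CPM in N2a and no more than 1.46 CPM in the other lines. The negative regulators Skil and Tob2 were highest in N2a, at 187.5 CPM and 146.7 CPM.

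Of 10 BMP target genes, the Id members among them, 7 could be compared between mESCs and N2a, of which 6 were lower and 1 higher in mESCs, with a median log2 ratio of -2.84. Against NIH/3T3, 3 of 4 were lower and 1 higher, with a median log2 ratio of -2.09 against -0.0094. These 3 were the members Id1, Id2 and Id3, so the list added no further lower gene there. The gene that was higher in both was Dusp9, an ERK phosphatase, with 101.0 CPM in mESCs (95.4 to 106.7), 16.4 CPM in NIH/3T3, and 1.95 CPM in N2a. Gata2 reached 38.6 CPM in N2a and no more than 4.19 CPM in the other lines. Id4, named after its values were seen, had 53 UMIs in mESCs, 18 in N2a, and 0 in NIH/3T3, so the remaining Id family gene had its most UMIs in mESCs, at 4.30 CPM. The BMP target list thus differed in direction within itself, with Id1, Id2 and Id3 lower and Dusp9 higher in mESCs than in both other lines.
The E protein genes, whose products Id proteins bind, were counted in all lines. Of 3 genes, 0 were higher and 2 lower in mESCs than in N2a, and 0 were 2-fold apart from NIH/3T3, with medians of -1.03 and -0.59. Tcf4 had 1625 CPM in N2a and 250.7 to 265.4 CPM elsewhere, Tcf12 220.6 to 451.5 CPM, and Tcf3 43.4 to 102.0 CPM. N2a, the line with the most Id1 and Id2, thus also had the most Tcf4 and Tcf12 and the least Tcf3.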

How the data were processed

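CapSeq libraries of N2a, NIH/3T3, and mESCs were processed by the authors with CapMux, which split reads by BC1, trimmed the TSO, and aligned and counted them by STARsolo to GRCm39 (GENCODE M30 genes). As raw whole-number counts, the authors deposited 1 matrix for each line and 1 that pools the lines, without normalization or a cell filter. The feature mode and use of strand are not given in the sources used here. All 10 members overlap an antisense gene in GENCODE M39, so reads of such partners cannot be told apart if strand was not used. The overlap on the same strand concerned 1 member, Jak1, and a pseudogene.

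From these counts, cells were kept that held 1000 or more UMIs of which no more than 20% were mitochondrial, and UMIs were summed per line into CPM. Depth was 11697865 to 17955221 UMIs, at which a count of 0 (up to 3 counts) allows 0.167 to 0.256 CPM. Doublets were not called. For shares, every kept cell was also thinned at random to 1000 UMIs. Groups came from the cell line labels. With 1 sample per line, no test was made. Positions and exon lengths came from GENCODE M39, where 32953 of 33565 gene identifiers were found. Promoters came from RefSeq (GRCm38.p6). Besides the members, up to 4 genes per list with the largest ratio of CPM + 1 between lines and at least 20 CPM were named. The members and lists were chosen with earlier results of these data known. The alternatives changed the cells, the matrix, the weight of cells, the scaling (edgeR 4.0.16 for TMM factors), the fold, and the minimum level. Analyses used scipy 1.17.1, numpy 2.4.6, and pandas 2.3.3 under Python 3.11.15, and R 4.3.3, and intervals, ratios, and thinning were tested on simulated data.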

Additional observations from a re-analysis of the deposited data

How the results depend on the processing

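No paired analysis was possible because each line had 1 sample, and leaving out replicates was not possible for the same reason. Of 270 member ratios recomputed under other cells, matrices, weights, and scalings, 268 stayed inside the counting interval and none of the ratios past 2-fold changed direction. Member levels were less stable, with 22 moved and 278 inside. Shares of cells, thinned ones included, moved most often, with 66 moved and 114 inside. The share with Stat3 in N2a, for example, went from 45.2% to 52.0% with cells called by STARsolo's rule. The number of members highest in each line was the same except with the mean over cells, where Stat3 put 2 members highest in N2a and 4 in mESCs. The scalings shifted the ratios of all genes by little, the furthest being -0.0683 on the log2 scale for N2a over NIH/3T3. With a fold of 4, 0 members were higher and 3 were lower in mESCs than in NIH/3T3. The 1 member higher in N2a than in NIH/3T3 became 2 with cells called by STARsolo's rule, at most 10% mitochondrial UMIs, all barcodes, the mean over cells, or without the 5% of cells with the most UMIs, since Id2 had a ratio of 1.998. It became 3 with a fold of 1.5 and 0 with a fold of 4. Without Id3, the log2 ratio of summed targets was -1.318 for mESCs over N2a, -0.948 for mESCs over NIH/3T3, and 0.37 for N2a over NIH/3T3, the last with its direction turned. Depth limits the per-well values of Bmp4 and of the Id genes in mESCs, and co-detection, where 2 of the 3 N2a Id pairs had overlapping intervals with cells thinned to 2000 UMIs.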

Other observations

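Cultures of mouse embryonic stem cells are known to hold a few cells that express genes of the 2-cell embryo, such as Zscan4c and Tmem92. With at least 3 UMIs of an 8-gene list, 78 of 2137 mESCs were taken as 2-cell-like. Id2 had 11 UMIs in 9 of these cells, or 29.4 CPM (95% exact Poisson interval 14.7 to 52.6), against 4.77 CPM (3.61 to 6.18) in the other 2059 mESCs, and the intervals do not overlap. Il6st had 29.4 CPM (14.7 to 52.6) against 58.2 CPM (53.9 to 62.7), also without overlap. For the other 8 members the intervals overlapped. The limit of 3 UMIs cuts a range, not a cell type, with 21 cells at 2 UMIs and 12 cells at 3 UMIs. Median UMIs per cell were 3881 and 4845. Id2 and Il6st were singled out after the values of all 10 members were seen, and no test was made.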
